A study of Caenorhabditis elegans with 6 samples.

Results

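Total small RNA of Caenorhabditis elegans larvae that carry susi-3(ust51) was compared with that of a control strain, using 2 of the 6 small RNA libraries of the series. The control genotype was eri-1(mg366);GFP::NRDE-3, and the mutant carried susi-3(ust51) in addition, so that eri-1(mg366) and the tagged NRDE-3 transgene were shared by both libraries. Each group was 1 library of whole larvae at the L3 stage, labelled 15 °C, after maintenance of the strains at 20 °C. Phosphatase (CIAP) and then T4 polynucleotide kinase with 1 mM ATP were applied to the RNA, and the 17 to 30 nt range was recovered from a gel for Illumina sequencing. The remaining 4 libraries hold total small RNA of a susi-2 mutant and RNA recovered with NRDE-3 from the 3 genotypes.

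NRDE-3 is an Argonaute protein that binds secondary siRNAs made by RNA-dependent RNA polymerases on a target transcript and carries them into the nucleus. Loss of eri-1 removes a large set of endogenous siRNAs from NRDE-3. Antisense ribosomal siRNAs (risiRNAs) are siRNAs complementary to rRNA, known from worms in which rRNA processing or decay is disturbed. The susi (suppressor of siRNA) mutants were found by their effect on such siRNAs. susi-3 has been assigned to riok-1, which encodes a RIO kinase that acts in maturation of the small ribosomal subunit.

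A read on the strand of an annotated gene was counted as sense and a read on the other strand as antisense. The control library held 10512324 counts and the susi-3 library 9842186, so that 1 count was 0.0951 and 0.102 CPM (counts scaled to a common library total). Antisense counts were 25.97% of the control and 20.0% of the susi-3 library. With 1 library on each side the comparison has no replicate check and no test was possible. Ratios below are the share of all counts in susi-3 over that in the control, and the range after each is an exact 95% interval that covers counting error only, since these reads carry no molecular identifiers and need not be separate molecules. For single genes the log2 ratio was taken on CPM plus a pseudocount of 1, for genes with at least 50 counts over both libraries, and a gene at 1 or more, or at −1 or less, passed the size rule of a 2-fold difference.

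The genes of the pathway gave few reads in the size range sequenced. riok-1 had 94 sense counts in the control and 89 in susi-3, and its antisense counts were 56 and 29. rrp-8, the gene to which susi-2 has been assigned, had 30 and 36 sense counts and 53 and 31 antisense counts. eri-1 had 8 and 7 sense counts. nrde-3, present also as a transgene, had 442 and 571 sense counts and 3292 and 2274 antisense counts. The labels do not give the lesion, and these values do not check the labels.

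Antisense reads on all 4 nuclear rRNAs made up a larger share of the susi-3 library. The 2 genes of 18S rRNA, the RNA of the small subunit, behaved as copies: antisense counts were 44 and 220 at rrn-1.1 (ratio 5.34, 3.85 to 7.56) and 53 and 221 at rrn-1.2 (ratio 4.45, 3.29 to 6.13). The 26S rRNA of the large subunit, rrn-3.1, had 220 antisense counts in the control and 413 in susi-3. The 5.8S rRNA, rrn-2.1, had 43 and 93. The 13 copies of the 5S rRNA gene with reads mainly on their annotated strand summed to 227 and 499. Each library value of susi-3 lay above that of the control, and the 18S ratio lay above the 26S ratio of 2.01 (1.70 to 2.37) by more than counting error.

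The make-up of the antisense rRNA reads differed, with a larger share of 18S in susi-3. In the control, 18S gave 16.52% (13.6 to 19.8) of the 587 antisense rRNA counts and 26S gave 37.5% (33.5 to 41.5). In susi-3, 18S gave 30.5% (28.1 to 32.9) of 1446 counts and 26S gave 28.6% (26.2 to 30.97). The share of 5.8S was 7.33% and 6.43%, and that of 5S was 38.7% and 34.5%, each with overlapping intervals. Antisense reads stayed a trace of all reads at these genes. They were 0.0126% of the 18S reads in the control and 0.0535% in susi-3, and 0.0102% and 0.0231% of the 26S reads.

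The sense rRNA fragments did not follow a single direction, and that of 18S depends on the scaling: the log2 ratios of 0.26 for rrn-1.1 and 0.11 for rrn-1.2 move by −0.26 under scaling by the trimmed mean of M values. Sense counts of 26S were 2159668 in the control and 1784072 in susi-3 (ratio 0.882, 0.881 to 0.884). Those of 18S were 772570 and 824259 (ratio 1.14, 1.14 to 1.14). Those of 5S were 80244 and 129256 (ratio 1.72, 1.71 to 1.74). The 11 5S copies other than rrn-4.15 and rrn-4.16 were close to each other, at 6158 to 7328 sense counts each in the control and 9123 to 12011 in susi-3, and at 13 to 26 and 35 to 56 antisense counts. Copies of a repeated gene thus shared its reads nearly evenly, and their values are not independent of each other.

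**Figure D1:**
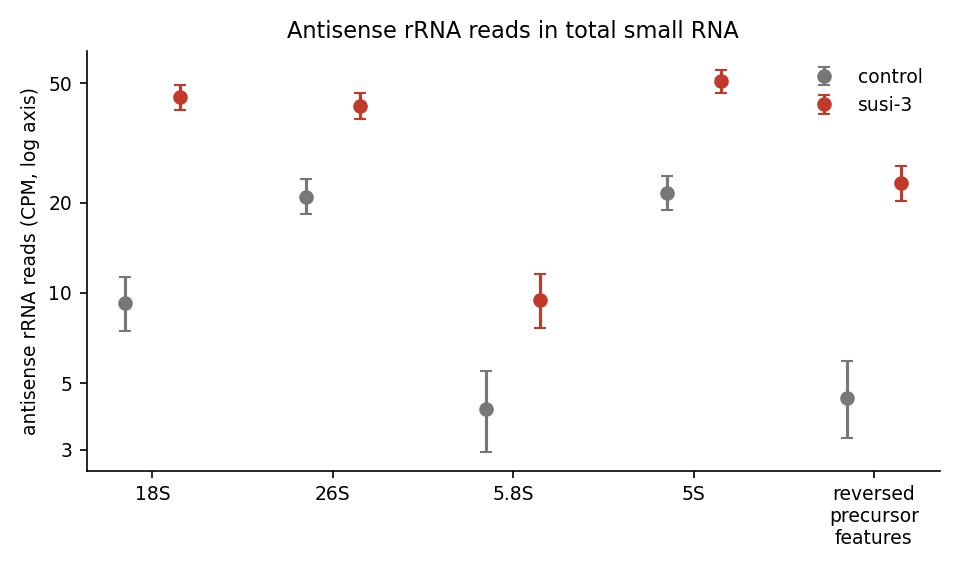
Antisense rRNA reads in CPM (log axis) in the control (grey) and susi-3 (red) libraries, for 18S, 26S, 5.8S and 5S rRNA and for the sense column of 4 rRNA features annotated on the reverse strand. Bars are exact 95% Poisson intervals of the counts; the susi-3 value is the higher for each, with 441 against 97 counts for 18S and 228 against 47 for the reversed features.

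Features annotated on the reverse strand gave the same picture from the other column of counts. They may share reads with the rRNA genes above, as copies do, so their values are not separate support. F31C3.13, F31C3.14, F31C3.15 and F31C3.16 are classed as rRNA but hold their abundant reads in the antisense column, 408962 in the control and 290483 in susi-3, so that their sense column is the strand opposite to rRNA. That sense column held 47 counts in the control and 228 in susi-3, which gives a ratio of 5.18 (3.77 to 7.25). The largest of the 4 was F31C3.14, with 24 and 133 counts. The 5S copies rrn-4.4, rrn-4.3 and rrn-4.2 lie the same way and together had 95 and 210 sense counts, a ratio of 2.36 (1.84 to 3.04) beside 2.35 (2.00 to 2.76) for the antisense counts of the other copies. In RNA recovered with NRDE-3, the antisense counts of the 4 precursor rRNA genes were 4169 in the control and 23626 in susi-3, for a ratio of 6.41 (6.203 to 6.63), beside 2.81 (2.49 to 3.18) in total RNA. There the ratios of 18S and 26S lay close, at 6.12 (5.72 to 6.55) and 6.48 (6.24 to 6.73).

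Antisense reads on spliceosomal snRNA genes, which encode the RNA cores of the splicing machinery, were higher in susi-3 for every gene tested. Of the 96 snRNA genes 40 were tested on the antisense strand and all 40 were at least 2-fold higher, whereas 5.48% of all 5460 genes tested were, and the median log2 ratio was 2.08. The class summed to 519 antisense counts in the control and 4602 in susi-3, and the antisense share of all reads at these genes was 1.53% and 24.2%. A gene with few control counts could enter the test only through susi-3, so 40 of 40 is not a statement about all 96 genes.

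The SmY RNAs are small nematode RNAs linked to spliced leader trans-splicing. Their 12 genes, not all within the snRNA class summed above, held about as many antisense reads as the other snRNA genes together. The 12 smy genes, of which 7 are classed as snRNA in the files, summed to 288 and 2983 antisense counts (ratio 11.06, 9.80 to 12.5), and the snRNA genes without them to 329 and 2988 (ratio 9.70, 8.65 to 10.9). smy-1 had 51 antisense counts in the control and 773 in susi-3. smy-2 had 63 and 756, and smy-8 had 90 and 365. These 3 had the most antisense counts in the control, and their ratios were unlike, with 16.19 (12.19 to 21.9) for smy-1 and 4.33 (3.43 to 5.52) for smy-8. smy-3 had 13 and 382 antisense counts, the largest log2 ratio of all genes tested at 4.154. For smy-7 it was the sense column that differed, with 12 and 175 counts.

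Sense reads of the snRNA genes were lower as a sum, and 1 gene set that sum. On the sense strand 72 genes were tested and the median log2 ratio was 0.06. Under scaling by the trimmed mean of M values (TMM) it was −0.18. Of the 72, 8 were at least 2-fold higher and 2 lower (1 and 5 under TMM), beside 10.3% and 8.02% of all genes tested. M163.13 had 22764 sense counts in the control and 5355 in susi-3, and with it the class ratio was 0.462 (0.453 to 0.471). Without M163.13 the class had 10636 and 9088 sense counts, a ratio of 0.913 (0.887 to 0.939). sup-6, a snRNA gene known as a suppressor locus, had 752 and 559 sense counts and 7 and 110 antisense counts. Of the 37 snRNA genes tested on both strands, 28 had a sense ratio below 1 and an antisense ratio above 1, beside 11 of 55 genes of the ncRNA class. The antisense part of the snRNA count was fixed beforehand, since all 40 genes tested on that strand were higher. In NRDE-3 IP the snRNA antisense counts were 248 and 326 (ratio 1.49, 1.26 to 1.76), so the large difference of total RNA was not seen at that size in RNA bound to NRDE-3.

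Spliced leader RNAs, the donors of the short leader that is trans-spliced to nematode mRNAs, had a larger share of antisense reads and a smaller share of sense reads in susi-3. Of 30 genes, 14 were tested for antisense counts and 13 were at least 2-fold higher (5.48% of all genes tested), with a median log2 ratio of 1.84. Here too a gene with few control counts could be tested only through susi-3, so the count does not describe all 30. The 18 SL2 genes summed to 581 antisense counts in the control and 2596 in susi-3 (ratio 4.77, 4.36 to 5.23), and the 11 SL1 genes on their annotated strand to 28 and 164 (ratio 6.26, 4.17 to 9.70). On the sense strand the SL1 genes had 5608 and 3503 counts (ratio 0.667, 0.639 to 0.696), with 430 to 547 counts in each copy in the control and 284 to 334 in susi-3. sls-2.8 had 114 and 423 antisense counts and sls-2.9 had 97 and 421. sls-2.18, named after its values were seen, had 7 and 153. The exception among the 14 was sls-1.12, whose 757 and 466 antisense counts lie opposite to a few sense counts (5 and 29), as for the reversed rRNA features. In NRDE-3 IP the class had 217 and 197 antisense counts.

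The snoRNA genes, which guide the modification and processing of rRNA, were mixed. Of 345 genes, 41 were tested for antisense counts. Of these, 23 were at least 2-fold higher and 2 lower by as much, and the median log2 ratio was 1.45, beside 5.48% higher and 18.5% lower among all genes tested. Genes with few control counts again entered only through susi-3. The class in the files also holds SmY genes described above, among them smy-2 and smy-3, which were both at least 2-fold higher. The sum hardly differed, with 13693 and 12966 counts, because K07C10.2 alone had 8511 and 2883; without it the sum was 5182 and 10083 (ratio 2.08, 2.01 to 2.15). K07C10.2, 1 of the 2 lower genes, overlaps the ncRNA gene K07C10.6 in RefSeq (WBcel235). K07C10.6 had 9023 and 2840 sense counts, while K07C10.2 had 4 and 8. The antisense counts of K07C10.2 thus moved as the sense counts of K07C10.6 did and may be reads of that gene. T26A8.6 had 28 antisense counts in the control and 329 in susi-3, while its sense counts were 4509 and 1033. C05H8.3 had 92 and 638 antisense counts and 1534 and 635 sense counts. Y37E3.20 had 16 and 220 antisense counts with sense counts that differed little, 1511 and 1385. These 3 genes were chosen after their values were seen. Of the 25 snoRNA genes tested on both strands, 20 had a sense ratio below 1 and an antisense ratio above 1, as the plot of both strands shows. Of 55 genes of the ncRNA class 11 did.

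**Figure D2:**
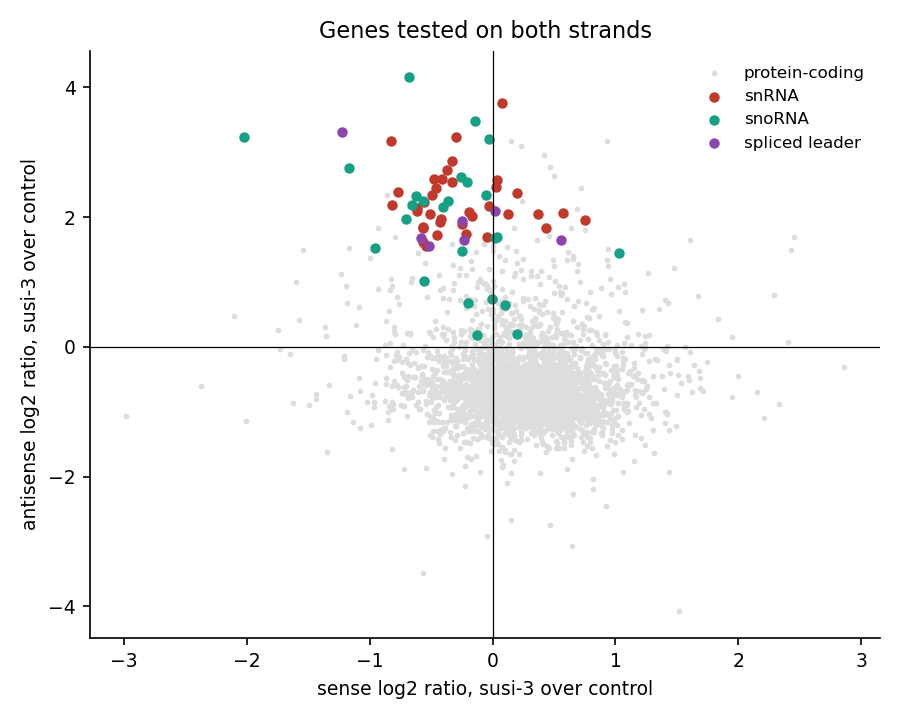
log2 ratio of susi-3 over control for sense counts (horizontal) and antisense counts (vertical), for genes tested on both strands. Protein-coding genes are grey; the 37 snRNA, 25 snoRNA and 7 spliced leader genes lie in the upper part of the plot, most of them left of 0.

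A few genes of the ncRNA class behaved in this way too. C18C4.17 had 3340 sense counts in the control and 728 in susi-3, and 15 and 343 antisense counts. srpr-2.2 had 14164 and 9877 sense counts and 38 and 196 antisense counts. For srpr-2.2 the IP values moved the same way, with 719 antisense counts in the control and 2871 in susi-3. srpr-2.1 had 27 and 116 antisense counts in total RNA and 248 and 856 in the IP. srpr-1.1 and srpr-1.2 hold more reads on the antisense strand and differed on the sense strand, with 30 and 165 sense counts and 684 and 563 antisense counts at srpr-1.1, and 46 and 212 sense and 646 and 559 antisense counts at srpr-1.2. The srpr genes are named for the RNA of the signal recognition particle, which targets ribosomes to the endoplasmic reticulum. On both strands summed, the log2 ratio of C18C4.17 was −1.54, since its sense reads outnumber its antisense reads.

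The antisense column of the ncRNA class mostly held reads of other genes. In RefSeq, 462 of the 7722 ncRNA genes overlap a microRNA, tRNA, snoRNA, snRNA or spliced leader gene, and these had 619195 of the 632452 antisense counts of the class in the control and 554929 of 568489 in susi-3. T09B4.14, which overlaps mir-1, had 332910 and 258017 antisense counts beside 696176 and 539120 sense counts of mir-1. F16A11.6 overlaps mir-71 and had 64521 and 100570 beside 131007 and 208507. In each pair the antisense reads of the ncRNA gene moved as the sense reads of the microRNA did. The 32 ncRNA genes that overlap a snRNA gene had 204 sense counts in the control and 1638 in susi-3 (ratio 8.58, 7.41 to 9.97), and the snRNA genes they overlap had 165 and 1505 antisense counts (ratio 9.74, 8.29 to 11.5). These are not independent values, since the features share a place and the way shared reads were counted is not given in the sources used here. Without the overlapping ncRNA genes and the reversed genes, antisense counts of the whole library were 1673956 in the control and 1072146 in susi-3, for a ratio of 0.684 (0.682 to 0.686).

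Antisense reads on mRNAs in worms are mainly endogenous siRNAs of several pathways, and as a share of all counts they were lower in susi-3, a direction that depends on the scaling. Protein-coding genes had 1382043 antisense counts in the control and 875108 in susi-3 (ratio 0.676, 0.675 to 0.678). Of the 4632 protein-coding genes tested, 139 were at least 2-fold higher and 943 lower by as much, beside 18.5% lower among all genes tested. Over all 5460 genes the median log2 ratio was −0.56, with 299 genes higher and 1010 lower. Scaling by TMM over these genes moves antisense log2 ratios by 0.63, or by less at low counts because of the pseudocount. It takes the median to −0.01 and turns the counts to 600 higher and 212 lower. A direction on the antisense strand is therefore given below relative to that median, and a list near −0.56 is near the bulk of genes.

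The lists of small RNA machinery genes had antisense medians near that of all genes. Of 14 Argonaute genes tested, alg-1, which encodes an Argonaute of the microRNA pathway, was at least 2-fold higher and none was lower. Among all genes tested 5.48% were higher by as much. The list median was −0.53, which is 0.04 under TMM. alg-1 had 40 antisense counts in the control and 415 in susi-3 (ratio 11.08), while its sense counts were 312 and 325. In the IP, alg-1 had 388 and 2056 antisense counts. prg-1, the Piwi Argonaute that binds 21U-RNAs, had 1506 and 906, csr-1 had 828 and 477, and wago-4 had 1094 and 779. Among nuclear RNAi genes 3 of 10 were at least 2-fold lower (median −0.73), among siRNA amplification genes 1 of 22 (median −0.72), among P granule genes 2 of 11 (median −0.68), among RNA decay genes 6 of 17 (median −0.77) and among rRNA processing genes 5 of 32 (median −0.63), beside 18.5% of all genes. With so few genes in each list, no list is set apart from the rest by these counts. None of these 5 lists had a gene at least 2-fold higher, and under TMM meg-4, a P granule gene with 294 and 70 antisense counts, was the only one at least 2-fold lower. met-2, a histone H3 lysine 9 methyltransferase, had 436 and 198 antisense counts, xrn-1, a cytoplasmic exonuclease, had 181 and 66, and toe-1 had 410 and 160.

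The genes with the largest antisense differences outside the structural and small RNA classes were single genes of unlike kinds. They were ranked among genes with at least 200 antisense counts over both libraries. Those with few control counts reached that minimum only through susi-3. shc-2, which encodes an Shc-type adaptor protein, had 26 antisense counts in the control and 512 in susi-3. arrd-17, an arrestin domain gene, had 13 and 288, and R102.4 had 39 and 408. Sense counts of these 3 genes were 26 or fewer in either library except at R102.4, with 88 and 166. F23A7.4 had 496 and 4049 antisense counts and its neighbour F23A7.8 had 312 and 2327. Their antisense log2 ratios were 3.097 and 2.95, and the genes do not overlap in RefSeq. cpt-4 had 46 and 353, ugt-22 had 41 and 289, and T16H12.2 had 107 and 546. In the IP, cpt-4 was also the higher in susi-3, with 604 and 2122 antisense counts, whereas shc-2 had 140 and 19.

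At the other end, some genes had few antisense reads in susi-3. Such genes reached the minimum of 200 counts only through the control. C08F11.7 had 1710 antisense counts in the control and 48 in susi-3 (log2 ratio −4.80). col-60, a cuticle collagen gene, had 267 and 0, which is at least 83.3-fold lower with a floor of 3 counts in susi-3. droe-4 had 400 and 13, nhr-229, a nuclear hormone receptor gene, had 486 and 19, and lnp-1 had 393 and 24. Y102A5C.36 had 2340 and 211, R03D7.2 had 1474 and 158 and Y70G10A.3 had 817 and 83. The transposon feature Y53G8AM.1 had 211 and 14, and nlp-62 had 293 and 23. These differences are far outside counting error, but how much such genes vary between libraries of the same strain was not measured. C08F11.7 had 135 and 7 antisense counts in the IP, and nhr-229 had 54 and 5.

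Histone genes stood above the bulk of protein-coding genes on the antisense strand. Of 72 genes 62 were tested, and the median log2 ratio was 1.05, beside −0.56 for all genes. Of the 62, 33 were at least 2-fold higher (51 under TMM) and none was lower, beside 5.48% higher among all genes tested without TMM. A gene with few control counts, such as his-16 with 20 and 64, could be tested only through susi-3. These counts therefore do not describe all 72. his-11 had 100 antisense counts in the control and 324 in susi-3, and his-25 had 90 and 324. Their sense counts were lower, at 141 and 72 for his-11 and at 85 and 37 for his-25. his-24, a linker histone gene and the most abundant on this strand, went the other way, with 6418 and 3467 antisense counts. Without his-24 the list had 2837 and 6205 antisense counts (ratio 2.34, 2.23 to 2.44). Histone genes are repeated in clusters with near-identical coding sequence, so reads may be divided between copies and the genes are not independent.

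Transposon features, which are targets of antisense siRNAs in the germline, had an antisense median near that of all genes. They had 234958 antisense counts in the control and 144206 in susi-3, and 97.9% or more of the reads at these features were antisense in each library. Of 257 features tested 1 was at least 2-fold higher and 12 lower, with a median log2 ratio of −0.53 that becomes 0.07 under TMM. Both counts are smaller shares than the 5.48% and 18.5% of all genes tested. T27C5.9 had 14206 and 9243 antisense counts, T05C3.3 had 12754 and 6945 and Y102A5D.1 had 11824 and 7146. Y20F4.9 had 8471 and 4769 and K03D3.6 had 8456 and 4644. Genes encoding BATH and MATH domain proteins, led by bath-20 with 23524 and 11453 antisense counts, had a median of −0.49 over 31 genes. F-box genes had a median of −0.47 over 67, of which 4 were at least 2-fold higher and 14 lower, a balance that turns to 9 and 3 under TMM (5.48% and 18.5% of all genes tested without it). Both medians are above 0 under TMM, at 0.11 and 0.12. Long intergenic noncoding RNAs (lincRNAs) had 27606 and 16523 antisense counts. Of the 28 tested, linc-169 with 477 and 1016 was the only one at least 2-fold higher, and 5 were lower, among them linc-6 with 2700 and 1113.

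Targets of ERGO-1, the Argonaute whose primary siRNAs need eri-1, numbered 20, of which 7 were tested. None was at least 2-fold higher and 1 was lower, beside 5.48% and 18.5% of all genes tested. Under TMM 2 were higher and 0 lower. The median log2 ratio was −0.42, which is 0.09 under TMM. Y47H10A.5 had 7674 and 8321 antisense counts, R06C1.4 had 1803 and 1143 and C18D4.6 had 1886 and 615.

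**Figure D3:**
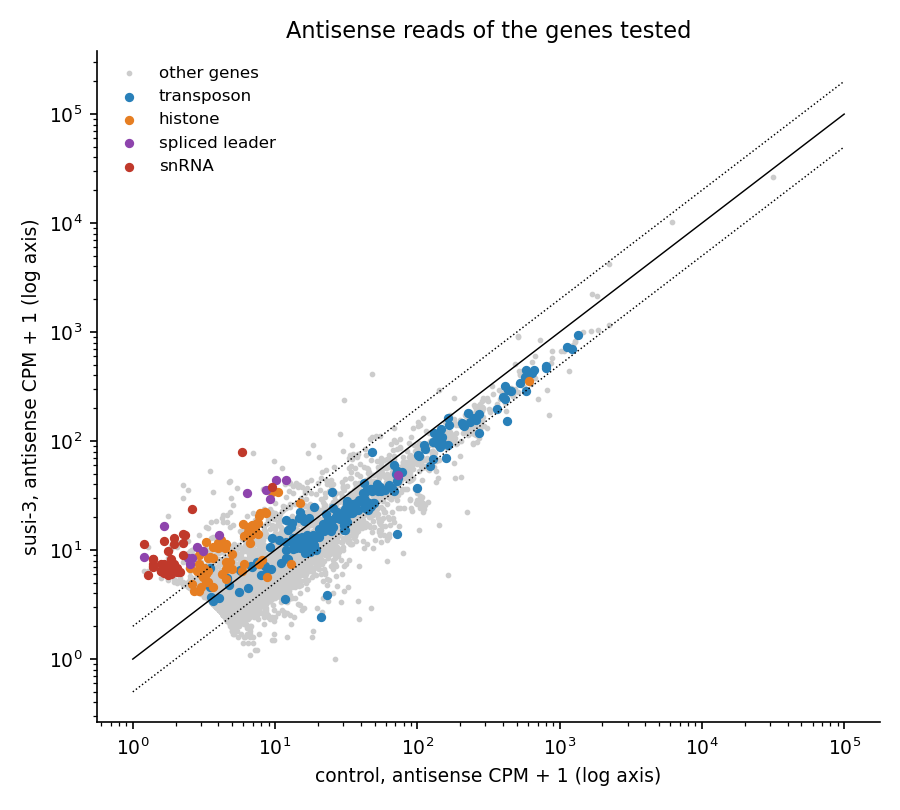
Antisense CPM plus 1 in the control (horizontal, log axis) and in susi-3 (vertical, log axis) for the 5460 genes tested; the solid line marks equal values and dotted lines a 2-fold difference. The bulk of genes and the transposon features lie below the solid line, and all 40 snRNA genes tested lie above the upper dotted line.

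21U-RNAs, the piRNAs of the nematode germline, made up a smaller share of the susi-3 library. Sense counts at the 15365 genes of the class were 135687 in the control and 58404 in susi-3, for a ratio of 0.460 (0.455 to 0.464). At least 1 count was found for 5022 genes in the control and 4019 in susi-3. Of the 708 genes tested 417 were at least 2-fold lower and 1 was higher, and the median log2 ratio was −1.12; of all 8075 genes tested on the sense strand 8.02% were at least 2-fold lower. The 10th percentile of these log2 ratios was −1.95 and the 90th was −0.14, and 47 genes had a ratio above 1. 21ur-3421 had 2383 and 1590 sense counts, 21ur-1681 had 2205 and 984 and 21ur-1793 had 1368 and 817. These 3, the most abundant, differed less than the median gene. Whole larvae were sampled, so that fewer germ cells and fewer 21U-RNAs in each cell cannot be told apart. Sense fragments of 24 oocyte and germline mRNAs were sparse, with 5 genes tested, none at least 2-fold different and a median of 0.15, which is −0.09 under TMM. Of the 86 genes of the sperm list 4 were tested, among them gsp-2, gsp-1 and spe-39, so the list says little about sperm transcripts.

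MicroRNAs, the small regulatory RNAs cut from hairpin precursors, mostly differed less than 2-fold. Their sense counts were 2665703 in the control and 2834073 in susi-3. Of 134 genes tested 11 were at least 2-fold higher and 5 lower, beside 10.3% and 8.02% of all genes tested on the sense strand. The median log2 ratio was 0.39 (0.23 over all genes). mir-1, the muscle microRNA and the most abundant, had 696176 and 539120 counts. mir-70 had 315304 and 168494, mir-58a had 156046 and 123659 and let-7 had 103538 and 57826. Lower values at these 4 were opposed by higher ones at mir-48 (177850 and 247617), mir-81 (149627 and 209952), mir-71 (131007 and 208507), mir-228 (87287 and 138503), mir-57 (63609 and 94372) and mir-82 (52108 and 82123).

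The microRNAs that time larval stages did not move together. lin-4, which promotes the passage out of the first larval stage, had 2957 and 6340 counts (ratio 2.29, 2.19 to 2.39). let-7, which acts at the passage to the adult, was lower (ratio 0.597, 0.590 to 0.603). Its relatives mir-48, mir-84 and mir-241 had ratios of 1.49, 1.08 and 1.199. Across the 13 stage-linked microRNAs, which include the mir-35 family of the embryo, the median log2 ratio was 0.12, which is −0.15 under TMM. The mir-35 family summed to 12023 and 10659 counts and the mir-51 family to 112431 and 164311.

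The microRNAs with the highest log2 ratios were mir-787 (964 and 2539 counts), mir-53 (144 and 388), mir-87 (207 and 496), mir-52 (1032 and 2304), mir-244 (123 and 279) and mir-234 (1094 and 2369). The lowest were mir-78 with 282 and 73, mir-2214 with 6652 and 2138 and mir-258.1 with 506 and 172. Then came mir-41 with 144 and 60, mir-258.2 with 587 and 307 and mir-70. mir-258.1 and mir-258.2 are copies that may share reads. Under TMM 3 microRNA genes were at least 2-fold higher and 9 lower, so the balance of the class depends on the scaling.

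**Figure D4:**
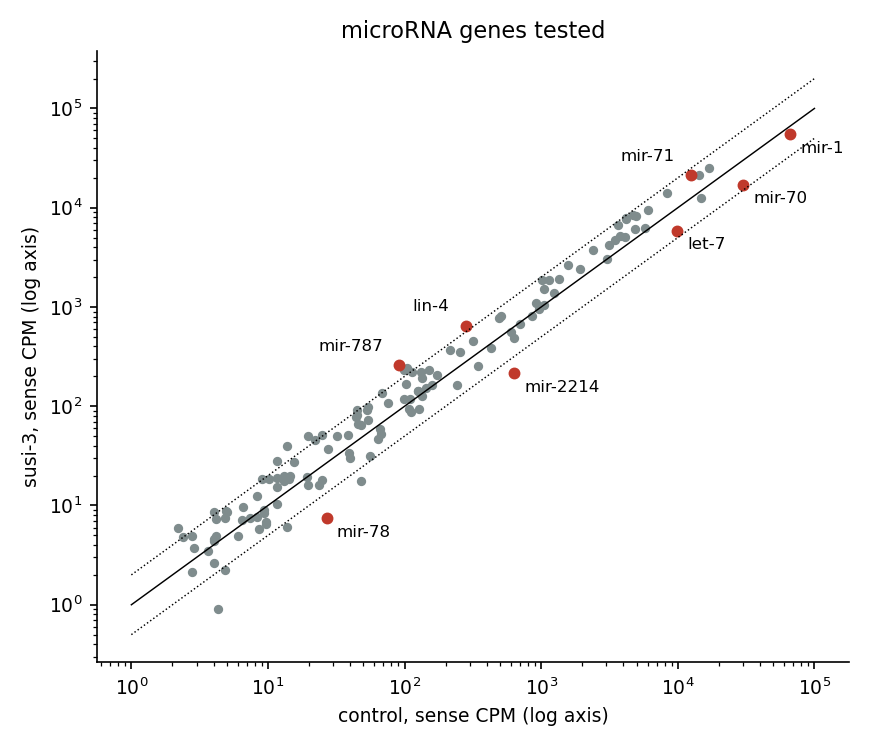
Sense CPM of the 134 microRNA genes tested in the control (horizontal, log axis) and susi-3 (vertical, log axis); the solid line marks equal values and dotted lines a 2-fold difference, and the red genes are named in the text. Most genes lie between the dotted lines, with lin-4 and mir-787 above and mir-78 and mir-2214 below.

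Sense reads of mRNAs in this size range are fragments and do not measure mRNA levels. Protein-coding genes had 1168542 sense counts in the control and 1363212 in susi-3 (ratio 1.25, 1.24 to 1.25). Of 6380 genes tested 677 were at least 2-fold higher and 106 lower, with a median log2 ratio of 0.31. Under TMM over the 8075 genes tested sense log2 ratios move by −0.26, or by less at low counts. Of all genes 470 were then higher and 908 lower, in place of 831 and 648.

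Fragments of heat-inducible chaperone mRNAs showed the largest differences. The 6 hsp-16 genes, which encode small heat shock proteins, summed to 154 sense counts in the control and 2642 in susi-3 (ratio 18.3, 15.6 to 21.7). hsp-16.11 had 37 and 885. F44E5.4 and F44E5.5, a pair of near-identical genes of the Hsp70 family, had 160 and 2688 and 154 and 2571. hsp-70 itself had 11 and 284. These genes were picked after their values were seen, together with srxa-8 (8 and 322), K05F6.10 (29 and 627) and F56A8.9 (42 and 689), the only ones of the 10 highest that are not heat shock genes. In the heat and stress list 12 of the 19 genes tested were at least 2-fold higher (9 under TMM). Among all genes tested on the sense strand 10.3% were. A gene with few control counts, such as hsp-70, could be tested only through susi-3, so these counts do not describe all 23 genes of the list. Near-identical genes such as F44E5.4 and F44E5.5 may share reads and are not independent. Constitutive members differed less: hsp-1 had 2260 and 3743, hsp-90 had 1269 and 2503 and hsp-3, the chaperone of the endoplasmic reticulum, had 4801 and 4837. gpdh-1, which makes the osmolyte glycerol, was the only one lower, with 82 and 24. In the susi-2 library of total RNA, the hsp-16 genes had 171 sense counts, while hsp-1 had 3625, hsp-90 had 2936 and hsp-3 had 6498. In NRDE-3 IP the hsp-16 genes had 118 sense counts in the control and 821 in susi-3.

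Fragments of cuticle collagen mRNAs were higher as a group. Of 66 col genes tested 37 were at least 2-fold higher and none lower, beside 10.3% higher among all genes tested on this strand, and the median log2 ratio was 1.14 (29 genes and 0.89 under TMM). col-3 had 454 sense counts in the control and 1757 in susi-3, col-144 had 516 and 1615 and col-10 had 463 and 1654. The collagens that shape the body, such as dpy-4 with 420 and 855, had a median of 0.92, and 7 of 18 were at least 2-fold higher, but 0 of 18 under TMM. Cuticle collagen genes are expressed in cycles with each moult, and the larvae were matched by stage label only. Of the 17 nspc genes tested 13 were at least 2-fold higher (7 under TMM), with a median of 1.12, among them nspc-17 with 43 and 161. A col or nspc gene with few control counts, such as nspc-17, could be tested only through susi-3. The counts of genes therefore do not describe all 157 col or all 18 nspc genes.

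Fragments of muscle mRNAs were higher as well. Of 26 genes tested 13 were at least 2-fold higher (6 under TMM, and 10.3% of all genes tested without it) and none lower, with a median of 1.00. unc-54, the main myosin heavy chain of body-wall muscle, had 2271 and 4092 sense counts, unc-22, which encodes twitchin, had 1537 and 2022, and unc-52, which encodes perlecan, had 1088 and 2348. The troponin genes pat-10, with 651 and 1913, and tnt-2, with 349 and 941, were chosen after their values were seen. Neuronal genes had a median of 0.89 over 13 genes, of which 4 were at least 2-fold higher (2 under TMM), among them egl-3 with 220 and 474.

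Fragments of intestinal mRNAs did not share this. None of 16 was at least 2-fold higher and 2 were lower, with a median of −0.16 (4 lower and a median of −0.41 under TMM). Among all genes tested 8.02% were at least 2-fold lower. asp-1, an aspartic protease gene, had 9641 and 7446 sense counts, asp-3 had 4630 and 3985 and cpr-5 had 2357 and 1814. The 2 lower genes without TMM were the yolk protein genes vit-2, with 82 and 30, and vit-6, with 42 and 13. Among the genes with the lowest sense log2 ratios outside the 21U and tRNA classes, chosen after their values were seen, acs-2, an acyl-CoA synthetase gene of fatty acid oxidation, had 283 and 25. icl-1, the enzyme of the glyoxylate cycle, had 3685 and 860, and T28F4.5 had 2138 and 321. fat-5, a fatty acid desaturase gene also picked for its values, had 208 and 49.

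Genes of protein synthesis and turnover were closer to the bulk. Ribosomal protein genes had a median of 0.54 over 75 genes, of which 1 was at least 2-fold higher, beside 10.3% of all genes tested. rps-23 had 4562 and 3335 sense counts and rpl-4 had 2463 and 3548. Translation factor genes had a median of 0.49 over 36, proteasome genes of 0.66 over 32, tRNA synthetase genes of 0.38 over 28 and rRNA processing genes of 0.40 over 32. Whether the differences between tissues and gene groups come with a difference in age within the stage, in growth or in handling was not tested, and with 1 library of each genotype the library and the genotype cannot be told apart.

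**Figure D5:**
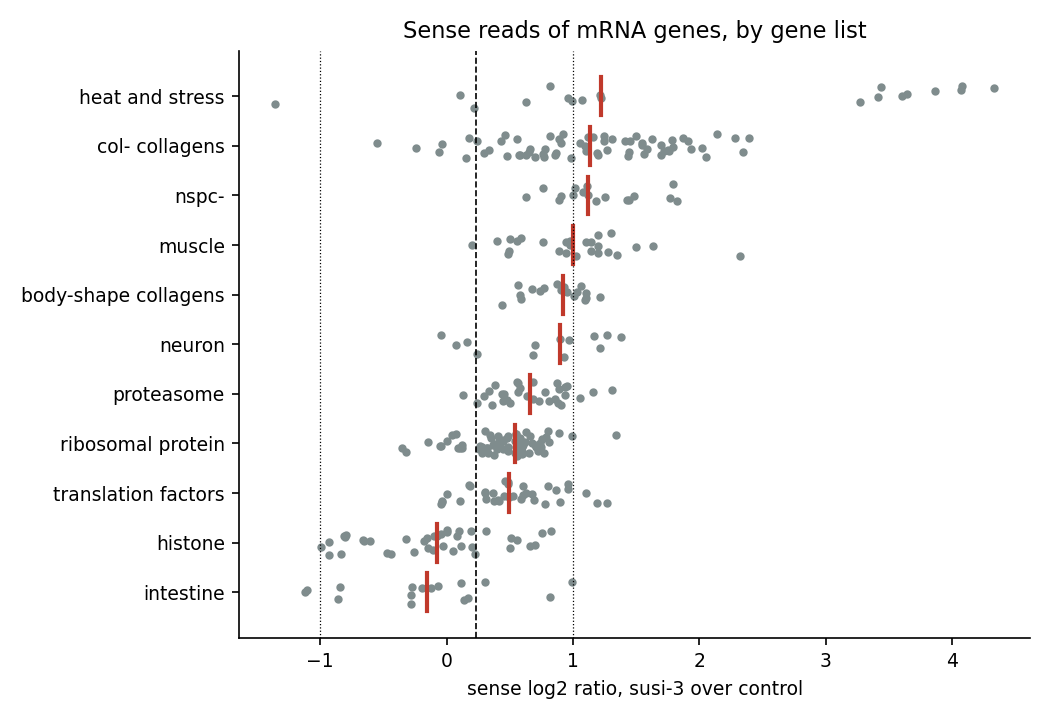
log2 ratio of susi-3 over control for sense counts of mRNA genes, 1 point per gene tested, in 11 gene lists. Red bars are list medians, the dashed line is the median of all 8075 genes tested (0.23) and dotted lines mark a 2-fold difference; 9 chaperone genes lie beyond 3, and the intestinal list is centred at −0.16.

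Mitochondrial transcripts made up a larger share of the susi-3 library. Sense counts of the 36 genes were 388991 in the control and 608215 in susi-3 (ratio 1.67, 1.66 to 1.68). All 36 were tested. Of these, 15 were at least 2-fold higher (8 under TMM) and none lower, beside 10.3% and 8.02% of all genes tested. The log2 ratios ran from 0.14 to 1.90, of which those under 0.26 turn negative under TMM. The 12 mRNA genes had 251182 and 388531 counts, the 22 tRNA genes had 73142 and 127411 and the 2 rRNA genes had 64667 and 92273. Within the 2 rRNA genes the difference was uneven, with 37161 and 62434 counts at MTCE.33 and 27506 and 29839 at MTCE.7. Antisense counts on the mitochondrial genes were 58 and 72 (ratio 1.33, 0.925 to 1.91), no difference beyond counting error.

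Fragments of nuclear tRNAs went in both directions. Of 416 genes tested 76 were at least 2-fold higher, with 6948 and 18665 counts in sum, and 72 lower by that factor (44 and 107 genes under TMM, and 10.3% and 8.02% of all genes tested), with 38311 and 9096. The whole class had 141127 and 95142 counts (ratio 0.720, 0.714 to 0.726). The most abundant were K02B12.t1 with 2414 and 1217, rte-3 with 2450 and 1162 and rte-1 with 2393 and 1204, which are close enough in both libraries to be copies that share reads. Copies make these counts of genes larger than the number of tRNA kinds that differ.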

How the data were processed

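Whole-larva small RNA libraries of 6 groups, 1 library each, were deposited as raw read counts per annotated feature, with sense and antisense counts in separate columns per the file headers. The submitters' processing notes name Bowtie2. Not given in the sources used here were its settings, the genome build, the annotation and the rule for reads with several places. The 56377 features were summed to 45510 genes by gene identifier, of which 43622 were found in the table of gene names. Blank cells (5) counted as 0, and 3 features without a gene name, with 101 and 116 counts in the control and susi-3 libraries, were left out.

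Counts were divided by the library total, and 1 count was 0.0951 CPM in the control (10512324 counts) and 0.102 CPM in susi-3 (9842186 counts). A count of 0 allows a share of up to 2.85e-05% and 3.05e-05%, at 3 counts. Intervals are exact at the 95% level. The log2 ratio used a pseudocount of 1 CPM and genes with at least 50 counts over both libraries. Scaling alternatives used TMM in edgeR 4.0.16 (R 4.3.3), with no edgeR test. Other steps used Python 3.11.15, pandas 2.3.3 and scipy 1.17.1. Gene overlaps were taken from RefSeq (WBcel235), without strand.

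Genes were named by a rule: the pathway genes, the nuclear rRNA genes, the 3 most abundant tested members of a class or list, the 10 highest and 10 lowest antisense log2 ratios among protein-coding, ncRNA, lincRNA, mitochondrial and transposon genes that reach 200 counts, the 5 most abundant transposon features, and the 10 most abundant, 6 highest and 6 lowest microRNAs. Genes named outside this rule were picked for their values. Members, lists and the rule were chosen with earlier results of these data known.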

Additional observations from a re-analysis of the deposited data

Results flagged for a closer look

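The following classes lay at least 1.5-fold to one side in total RNA and at least 1.5-fold to the other side in NRDE-3 IP, susi-3 against control. The IP libraries are other libraries, also 1 for each genotype, and none of these differences was tested. LincRNA antisense counts had a ratio of 0.639 in total RNA and 6.62 (6.36 to 6.89) in the IP, where they numbered 2819 and 16493. The 3 lincRNAs most abundant on that strand in total RNA did not share the higher IP value. Their antisense IP counts were 255 and 60 at linc-29, 51 and 8 at linc-6 and 109 and 31 at linc-7. LincRNA sense counts were also higher in the IP, at 1248 and 17405 (ratio 15.8, 14.9 to 16.7). Mitochondrial sense counts had ratios of 1.67 and 0.450. Sense counts of the 2 mitochondrial rRNA genes had ratios of 1.52 and 0.425. Antisense counts of histone genes other than his-24 had ratios of 2.34 and 0.559, with 15006 and 7414 counts in the IP. The mir-51 family had sense ratios of 1.56 and 0.530, and the mir-44 family had 1.63 and 0.569. MicroRNAs as a class had an IP sense ratio of 0.560.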

How the results depend on the processing

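No paired analysis was possible because each group is 1 library, and no library could be left out. Scaling by TMM or by the median of ratios gave antisense ratios of 7.50 and 7.57 for 18S, 3.095 and 3.13 for 26S, 3.57 and 3.60 for 5.8S, 3.62 and 3.66 for 5S and 14.6 and 14.8 for snRNA genes. Sense ratios became 0.385 and 0.384 for snRNA genes and 0.383 and 0.383 for 21U-RNAs. The genes higher in antisense counts became 600 and 605 and those lower 212 and 201, and microRNA genes became 3 and 3 higher and 9 and 9 lower. With microRNA sense counts as the total, the snRNA ratios were 8.34 (antisense) and 0.407 (sense), the 21U ratio was 0.405, 1556 genes were lower in antisense counts and 7 microRNA genes higher. Totals without sense rRNA gave a 21U ratio of 0.455. With all 16 5S copies as written the antisense ratio was 1.85. Without M163.13, an alternative chosen after seeing the data, the snRNA sense ratio was 0.913. Genes higher in antisense counts numbered 452 with at least 10 counts, 452 with at least 1 count, about 1.2e+02 with at least 200 counts, 133 with a pseudocount of 5 CPM and 821 with both strands summed. Those lower numbered 427 with at least 200 counts and 300 with a pseudocount of 5 CPM, which left 6 microRNA genes higher and 3 lower. Summing both strands turned the sign of the antisense median of neuronal genes (0.89), spliced leader genes (−0.16) and snoRNA genes (−0.23), and of snb-1 (0.20) and C18C4.17 (−1.54); such sums are led by the more abundant strand. The antisense direction of rRNA and snRNA ratios was the same under every scaling run.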
